A study of Mus musculus with 2 samples.

Results

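The sterol synthesis and SREBP genes are 9 genes listed by name: Srebf1, Srebf2, Scap, Insig1, Insig2, Hmgcs1, Fdft1, Sqle and Cyp51. All 9 were found among the 21755 protein-coding genes outside chromosome Y of the GENCODE mouse annotation, release M21. For each gene, every GATA4 peak was taken whose summit, the base of highest signal, lay in the gene or within 10 kb of it. The summits came from the authors' optimal list, which was made from both replicates. It holds peaks that passed a threshold on the irreproducible discovery rate (IDR). They need not be in each replicate's own list, which came from a later run. Of all summits in the optimal list, 16.3% were in both replicates' own lists and 16.7% in neither. Of the 24050 summits analysed in the optimal list, 12 were near the 9 genes, and 5 of the 9 genes had at least 1.

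Whole livers of healthy adult Mus musculus were studied, age unknown and sex not collected, with no treatment named. Chromatin immunoprecipitation with a GATA4 antibody was followed by sequencing, in 2 samples of 1 group. The labels number them biological replicates 1 and 2 but give both the same biosample and the same donor, so differences between the replicates can be technical. There was no second condition, so nothing was tested and every comparison below is a description. Peak lists measure no expression, so the tissue could not be checked against its marker genes, and the lists do not tell which liver cells gave a peak. Read depth is unknown.

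GATA4 is a zinc-finger transcription factor that binds the letters GATA with preferred flanking bases, and in adult liver it is known from sinusoidal endothelial and stellate cells as well as hepatocytes. Srebf1 and Srebf2 encode SREBP1 and SREBP2, membrane-bound transcription factors made as inactive precursors in the endoplasmic reticulum. When sterols are low, the escort protein SCAP carries them to the Golgi, where proteases release the active part. When sterols are high, INSIG1 and INSIG2 hold SCAP back. The released factors bind sterol response elements (SRE), often beside a site for the CCAAT-binding factor NF-Y, in promoters of genes such as those for the enzymes of cholesterol synthesis.

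The sequences under the summits on which the results turn are given here, because they show the words found around each summit. The Insig2 promoter line stops before its GATA site. Each line is up to 50 bases on either side of a summit, read from GRCm38.p6 (mm10), 5′ to 3′ in the gene's direction. Capitals mark GATA sites (AGATAA or AGATAG or TGATAA or TGATAG), SRE (TCACNCCAC, where N is any base), NF-Y sites (CCAAT) and the E-box CAGCTG, on either strand. The first is from Scap intron 3 (chr9:110366887-110366987, plus strand). Insig1 is shown within intron 1 (chr5:28071980-28072080, plus strand) and upstream of its start site (chr5:28071000-28071100, plus strand). Insig2 is shown at its upstream summit (chr1:121335967-121336067, minus strand) and just before its first start site (chr1:121332590-121332671, minus strand, 82 bases, ending at the start site). Hmgcs1 is shown downstream of the gene (chr13:119709512-119709612, plus strand) and at its promoter (chr13:119690147-119690247, plus strand). The last line, upstream of Srebf1 (chr11:60223165-60223265, minus strand), is not from the optimal list but from the later run's list of the pooled reads.
Scap intron: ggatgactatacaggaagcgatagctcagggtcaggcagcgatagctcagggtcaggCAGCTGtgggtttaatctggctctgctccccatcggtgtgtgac
Insig1 intron: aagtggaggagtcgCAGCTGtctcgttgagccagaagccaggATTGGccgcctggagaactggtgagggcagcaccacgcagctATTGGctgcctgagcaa
Insig1 upstream: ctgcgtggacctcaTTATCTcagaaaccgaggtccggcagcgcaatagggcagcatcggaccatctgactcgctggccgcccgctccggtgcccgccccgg
Insig2 upstream: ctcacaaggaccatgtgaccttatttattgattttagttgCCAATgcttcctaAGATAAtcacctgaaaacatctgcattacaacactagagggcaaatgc
Insig2 promoter: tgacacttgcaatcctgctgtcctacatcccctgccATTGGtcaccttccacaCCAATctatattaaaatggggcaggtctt
Hmgcs1 downstream: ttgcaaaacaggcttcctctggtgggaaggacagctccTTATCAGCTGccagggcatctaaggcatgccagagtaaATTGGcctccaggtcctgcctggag
Hmgcs1 promoter: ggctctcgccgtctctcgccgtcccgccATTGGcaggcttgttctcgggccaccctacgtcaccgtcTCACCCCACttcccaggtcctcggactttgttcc
Srebf1 upstream: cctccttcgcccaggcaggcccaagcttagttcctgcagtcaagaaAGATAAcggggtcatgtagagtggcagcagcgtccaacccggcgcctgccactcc

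In the optimal list the summits fell on the genes for the escort and retention proteins and on 2 enzyme genes. Neither of the 2 SREBP genes had a summit. All 3 escort and retention genes had one, with 8 summits among them, and 2 of the 4 enzyme genes had one, with 4 summits. Of all 21755 protein-coding genes, 47.6% had a summit by the same rule, so the members' 5 of 9 was near the background and is not a result about these genes. The members carried 1.33 summits per gene against 1.12 over all genes. Per length searched, with the genes' spans and flanks summed, the values were 2.72 summits per 100 kb for the members and 1.61 for all genes. The median member was 23.6 kb long (7.3 to 58.2 kb), against 17.4 kb over all genes.

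**Figure D1:**
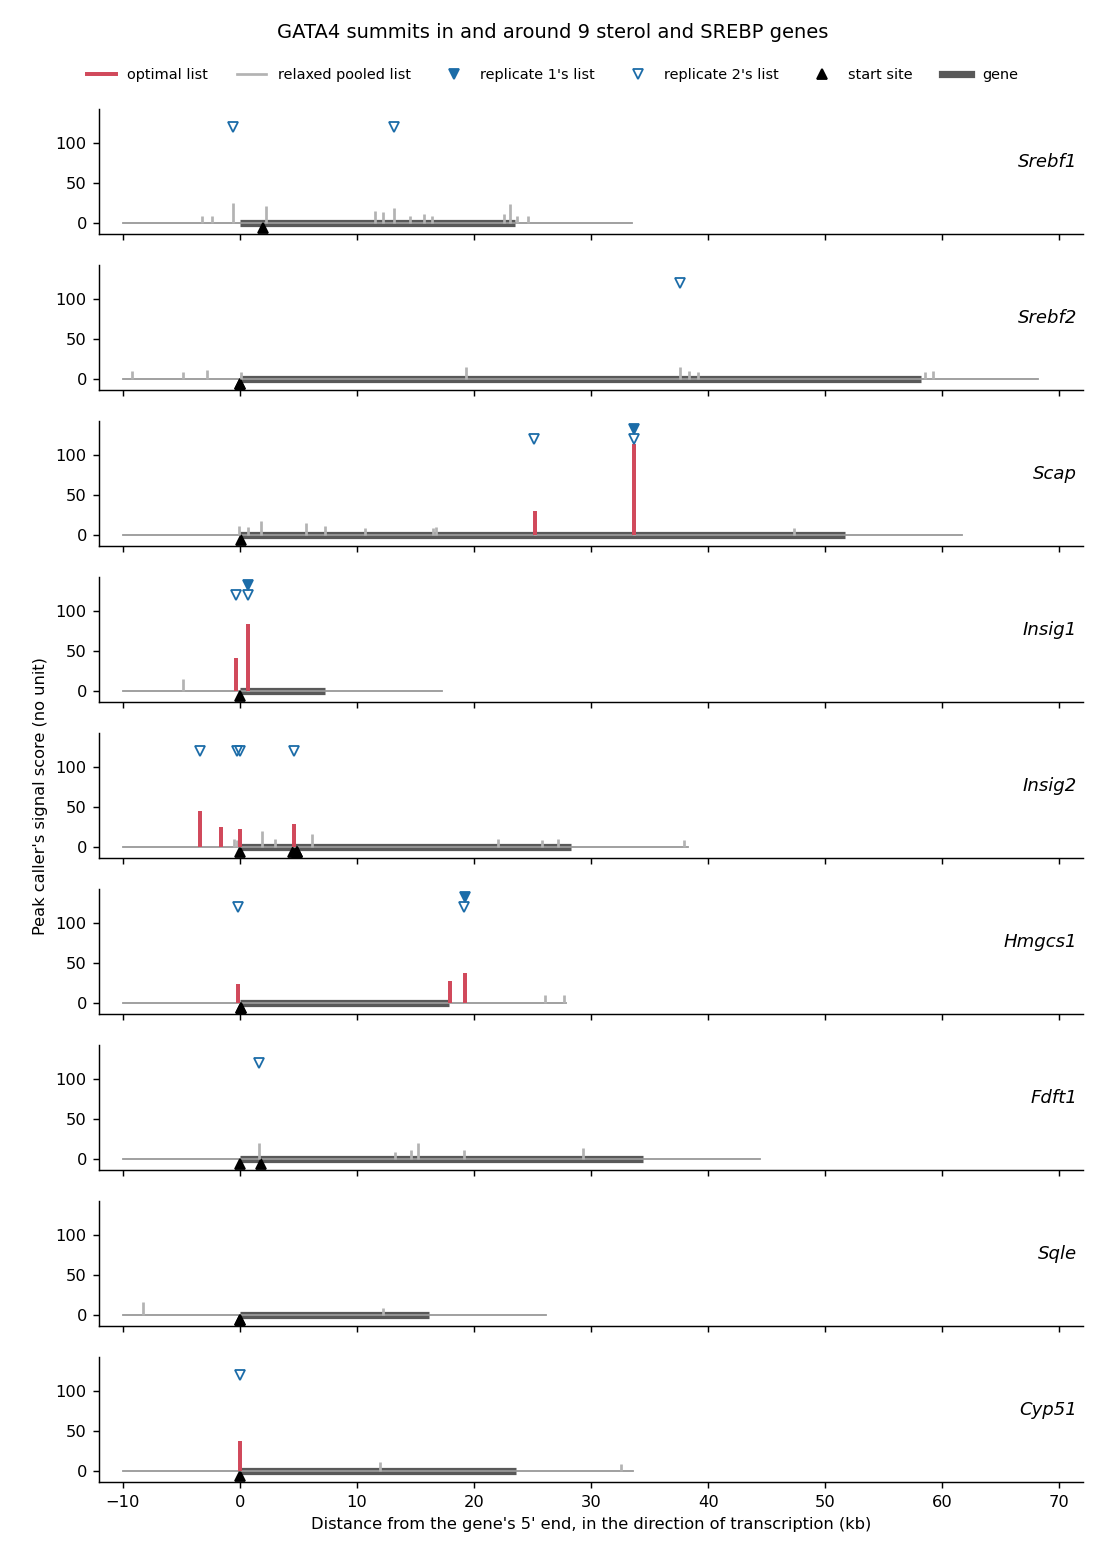
Peaks in and within 10 kb of the 9 genes, with distance from the gene's 5′ end in kb on the horizontal axis and the peak caller's signal score on the vertical axis. Red lines are the 12 summits of the optimal list, grey lines are peaks of the relaxed pooled list, triangles above mark summits of each replicate's own list and black triangles mark start sites. Red lines stand at Scap, Insig1, Insig2, Hmgcs1 and Cyp51, and Sqle has no triangle above it.

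The signal score, which the authors' peak caller gave each peak without a unit, ranks peaks within a list. Over the 12 member summits it had a median of 33.5 (22.0 to 113), against 35.8 over all summits of the list. Their median rank was 13432 (931 to 21285), where 1 is the strongest, against 12026 over all. Of the 12, 6 were above the list's median signal and 2 were among its strongest 10%. These were 1 peak in Scap and 1 in Insig1.

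**Figure D2:**
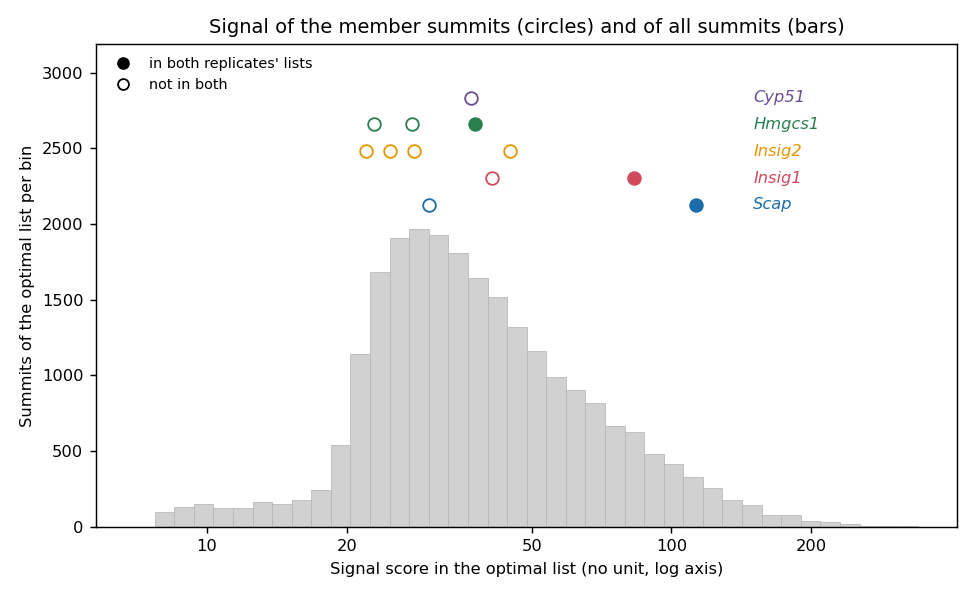
Signal score in the optimal list on a log axis, with bars for the number of all 24050 summits per bin and circles for the 12 member summits, 1 row per gene. Filled circles are peaks found in both replicates' own lists (3 of 12). The Scap and Insig1 peaks at 113 and 82.9 stand to the right of the other 10, which lie between 22.0 and 45.0.

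Scap encodes the escort that carries the SREBP precursors to the Golgi. Its leading peak, chr9:110366850-110367053, lay in intron 3, 33581 bp past the start site. It had the members' highest signal, 113, at rank 931 and with the highest IDR score the files allow, 1000. That score grows as the IDR falls, and the lists start at about 540, an IDR of 0.05. A score of 1000 is also the median over all summits of the optimal list, and the 12 member summits had a median of 906. A high score does not mean that a peak was in both replicates' own lists. The peak was in both replicates' own lists, at rank 839 of 4287 in replicate 1 and rank 1050 of 26314 in replicate 2, and in both conservative lists. It had no GATA site within 50 bp of its summit. The printed sequence instead holds a 21-base unit, agcgatagctcagggtcaggc, which stands 2 times in tandem, the last base of the second copy being the first of the E-box. Each copy carries the core letters GATA but not the flanking base required here. A full GATA site, TTATCT, lay 89 bp from the summit, inside the deposited peak. The second Scap peak, chr9:110358277-110358636 in intron 2, was weaker, with signal 30.1, rank 15407 and IDR score 828. Replicate 2's list held it, and replicate 1's and both conservative lists did not. Its window held the word TTGCACAA, a site of CEBP factors, and no GATA site.

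Insig1 encodes a sterol-responsive retention protein whose own gene is a known SREBP target. Both of its summits were promoter summits, within 1 kb of its start site. The stronger, chr5:28071949-28072120, lay in intron 1, 667 bp past the start site, with signal 82.9, rank 2363 and IDR score 1000. Both replicates' own lists held it, at rank 2892 in replicate 1 and rank 2443 in replicate 2, as did both conservative lists. Within 50 bp of the summit it had 2 NF-Y sites, at 4 and 34 bp, and the E-box CAGCTG at 31 bp. Its GATA site lay outside that window, 61 bp from the summit. The other peak, chr5:28070870-28071229, lay 313 bp upstream of the start site within the non-coding gene Gm26608, with signal 41.1, rank 9726 and IDR score 1000. This one had a GATA site, TTATCT, at 31 bp and 2 SP sites (GGGCGG). It was in replicate 2's list and absent from replicate 1's and from both conservative lists.

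Insig2, the second retention protein, had 4 summits, more than any other member. The gene is on the minus strand and has start sites in 2 places about 4.6 to 4.9 kb apart. The strongest peak, chr1:121335837-121336196, lay 3428 bp upstream, with signal 45.0, rank 8342 and IDR score 1000. Its summit was 3 bp from AGATAA, 6 bp from an NF-Y site and inside an ETS site, as the printed sequence shows. Both conservative lists and replicate 2's list (rank 17710) held it. Replicate 1's own list did not, although the peak stood at rank 2660 in that replicate's relaxed list, which holds 299786 peaks and no threshold on the IDR. The other 3 Insig2 peaks were weaker and in neither conservative list. One, chr1:121332441-121332800, had its summit 32 bp before the first start site, with rank 21285, signal 22.0 and IDR score 659. It had 2 NF-Y sites, at 3 and 10 bp, and a GATA site, TTATCT, at 30 bp, which crosses the start site and so is not in the printed line. Another, chr1:121327793-121328152, had its summit 51 bp past the second group's first start site, at rank 16902 with signal 27.9, with the E-box CAGCTG at the summit itself. Replicate 2's list held both. The last, chr1:121334038-121334397, lay 1629 bp upstream at rank 19259 with signal 24.8. It was in neither replicate's own list and had an NF-Y site and a CEBP site but no GATA site within 50 bp. A GATA site, TGATAG, lay 85 bp from the summit, inside the deposited peak.

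Among the enzymes, Hmgcs1 came first in pathway order. It encodes the cytosolic synthase that makes HMG-CoA. Its 3 summits lay just outside the gene, at both ends. The strongest, chr13:119709382-119709741, was 1302 bp past the gene's 3′ end, with signal 37.7, rank 11110 and IDR score 1000. It was in both replicates' lists, at rank 2594 in replicate 1 and rank 17943 in replicate 2, and in both conservative lists. At this summit the GATA site and the E-box share bases, in the run TTATCAGCTG, whose GATA part ends 7 bp from the summit. A weaker peak, chr13:119708125-119708484, had its summit 45 bp past the 3′ end, with signal 27.6, rank 17157 and IDR score 810. It had a GATA site at 29 bp and was in neither replicate's own list.

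The third Hmgcs1 peak, chr13:119690017-119690376, was at the promoter, 249 bp before the nearest start site. Its signal was 22.9, its rank 20678 and its IDR score 625. It held the SRE word TCACCCCAC at 17 bp and an NF-Y site at 18 bp on the other side of the summit, and no GATA site within 50 bp. Of all 24050 summits of the list, 70 (0.291%) had an SRE by this search, and this was the one among the 12 member summits. The peak was in replicate 2's list at rank 17912. It was absent from replicate 1's relaxed list and from the later run's pooled list.

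Cyp51, lanosterol demethylase, had 1 summit, 25 bp past its start site in the untranslated part of exon 1 (chr5:4104541-4104900, minus-strand gene). Its signal was 37.0, its rank 11458 and its IDR score 985. An NF-Y site lay 1 bp from the summit and no GATA site was found within 50 bp or in the whole deposited peak. GC content in the window was 70.3%, the highest of the 12. The peak was in replicate 2's list (rank 10624) and the later pooled list, and absent from replicate 1's relaxed list.

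The 4 members without a summit in the optimal list differed in what the other lists held. For Srebf1, the later run's pooled list had a peak 634 bp upstream of the gene and 2611 bp from its annotated coding start site (chr11:60223037-60223392) with AGATAA at the summit, at rank 19190 of 23696 and IDR score 728. Replicate 2's list held the same site at rank 18621 and IDR score 738. In replicate 1 it stood at rank 118783 of the relaxed list. A second peak of the later pooled list lay in the untranslated part of the last exon, exon 19, at rank 20629. Replicate 2's list had a further peak in intron 1 at rank 18175. For Srebf2, the second SREBP gene, replicate 2's list had 1 intronic peak at rank 21497 with no GATA site within 50 bp. That peak was nearer the start site of Shisa8 (28045 bp) than that of Srebf2 (37566 bp). For Fdft1, squalene synthase, replicate 2's list had a peak 186 bp from a start site at rank 18829. It had 2 NF-Y sites and no GATA site within 50 bp. For Sqle, squalene epoxidase, no thresholded list had a summit. Its leading relaxed pooled peak was 8307 bp upstream, at rank 40028 of 216237.

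Beyond 10 kb, the nearest summit of the optimal list was 18.2 kb upstream of Srebf1, at rank 1845 and with a GATA site, and 17 kb upstream of Insig2, at rank 1980 with 2 GATA sites. Their nearest coding start sites were those of Srebf1 and Insig2 themselves. The summit upstream of Srebf1 lay in an annotated exon outside that gene, and the one upstream of Insig2 was intergenic. For the other 7 members the next summit was between 22.4 kb (Fdft1, nearest the Ctsb start) and 228 kb (Hmgcs1) away.

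The replicates' lists differ greatly in length, and the members' counts moved with them. Replicate 1's list gave 3 members a summit (Scap, Insig1 and Hmgcs1, 1 each), beside 11.4% of all genes. Replicate 2's list gave 8 members a summit, 15 summits in all, beside 51.8% of all genes. Sqle was the exception. The earlier conservative list gave 4 members 1 summit each, beside 21.9% of all genes, and so did the later conservative list, beside 23.2%. The later run's pooled list gave 6 members 11 summits, beside 47.2% of all genes, and held 9 of the 12 optimal peaks, against 83.2% over the whole list. Of the 12 optimal peaks, 3 overlapped a peak of replicate 1 and 10 a peak of replicate 2 by at least 1 base. Over the whole optimal list the shares were 17% and 82.5%. Both conservative lists held 4 of the 12, against 38.2% (earlier) and 40.8% (later) of all summits.

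In the replicates' relaxed lists, which are of nearly equal length, all 12 peaks were found in replicate 2 and 8 in replicate 1. The leading Scap and Insig1 peaks had close ranks in both, 750 and 1129 for Scap and 2779 and 2589 for Insig1. The strongest Insig2 and Hmgcs1 peaks ranked higher in replicate 1, at 2660 and 3322, than in replicate 2, at 18213 and 19684. The upstream Insig1 peak went the other way, at 52294 in replicate 1 and 9081 in replicate 2.

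**Figure D3:**
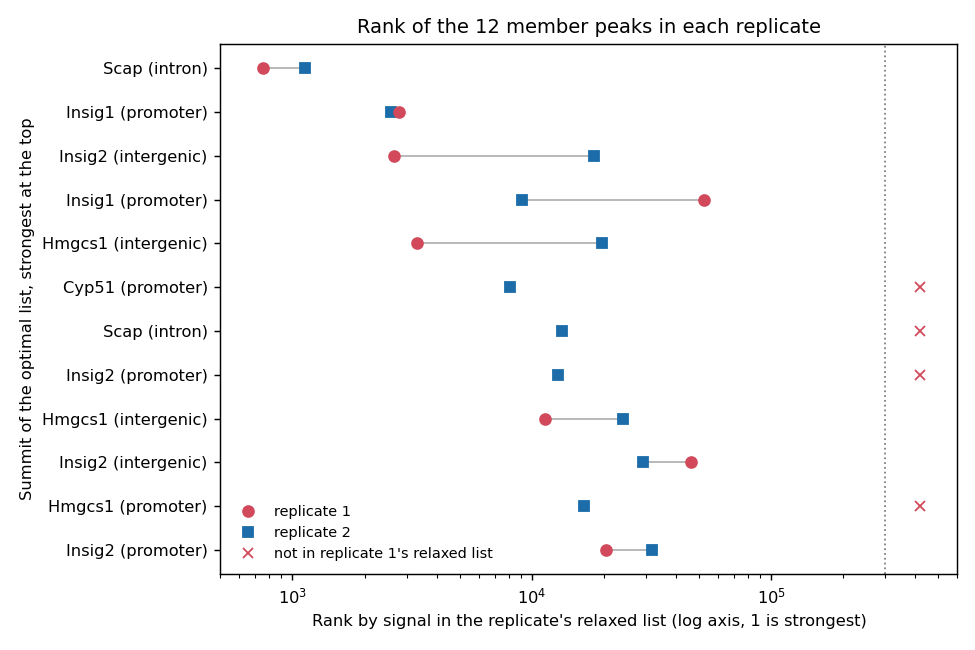
Rank of each of the 12 peaks by signal in the relaxed list of replicate 1 (circles) and replicate 2 (squares), on a log axis, strongest peak of the optimal list at the top. Crosses past the dotted line mark the 4 peaks absent from replicate 1's relaxed list. The Scap peak and the first Insig1 peak have close ranks in both replicates.

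By position, 6 of the 12 summits were promoter summits (50%, 95% Wilson interval 25.4 to 74.6%), 4 were intergenic and 2 intronic. Over all summits 21.6% were promoter summits. Counted over genes, 4 of 9 members had a promoter summit of their own, and 22.6% of all genes did. The median distance of the 12 summits to a coding start site was 1148 bp, against 15569 bp over the list, and their median GC content was 55.9%, against 50.5%. The 12 were taken for lying in a listed gene or within 10 kb of it, and the list's summits were not. The rule therefore favours promoter summits and short distances, and these values over summits cannot be read as a trait of the members. The 6 promoter summits had a median GC content of 62.9%, against 63.4% for all promoter summits, and the other 6 had 44.1%, against 48.5% for all others.

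GATA sites were found within 50 bp of 5 of the 12 summits (41.7%, 19.3 to 68.0%) and of 52.8% of all summits, a share within the members' interval. That interval treats the 12 summits as independent, which those of 1 gene are not, and no test was made. The 5 were 2 at Insig2, 2 at Hmgcs1 and 1 at Insig1. Of these, 3 were AGATAA, the word found at 27.2% of all summits. Among promoter summits 2 of 6 had a GATA site, against 25.7% of all promoter summits, and among the others 3 of 6, against 60.3%. Within the whole deposited peaks, which are up to 360 bp wide, 9 of the 12 had one, against 70% of all peaks of the list.

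NF-Y sites lay within 50 bp of 7 of the 12 summits (58.3%, 32.0 to 80.7%), against 12.8% of all summits. They were at all 4 genes with a promoter or upstream summit, Insig1, Insig2, Hmgcs1 and Cyp51. The counts were 4 of 6 promoter summits, against 14.8% of all promoter summits, and 3 of 6 others, against 12.3%. The E-box CAGCTG was at 4 of 12 (33.3%, 13.8 to 60.9%), against 7.68% of all summits, and a CEBP site at 2 of 12, against 1.33%. ETS sites (AGGAAA or AGGAAG or CGGAAA or CGGAAG) were at 4 of 12, against 46.0%. The hexamer AGGTCA of nuclear receptors was at 1, against 11.8%, and SP sites at 1, against 9.33%. The E-box CACGTG, HNF4 and FOX words were at none of the 12, with shares of 2.27%, 0.973% and 6.55% over all summits. With 12 summits, 0 allows a share of up to 24.2% (95% Wilson interval). Summits of 1 gene lie close together and some windows share a promoter, so they are not independent, and no test was made.

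**Figure D4:**
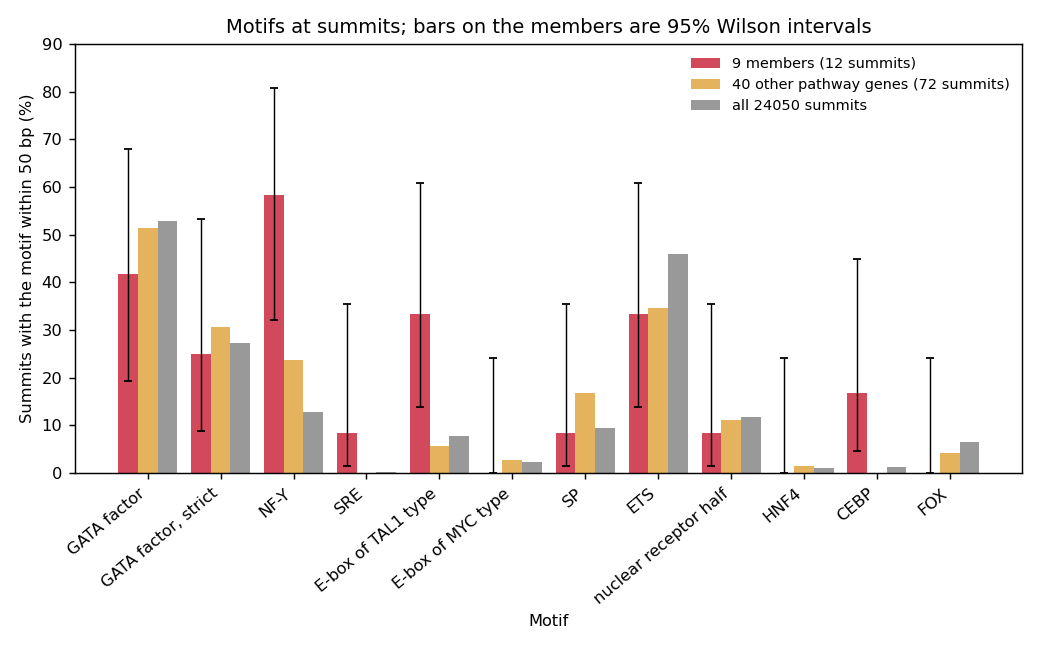
Share of summits with each motif within 50 bp, in percent, for the 12 member summits (red, bars are 95% Wilson intervals), the 72 summits at 40 other genes of the pathway (yellow) and all 24050 summits (grey). NF-Y sites are at 58.3% of the member summits, 23.6% of the others of the pathway and 12.8% of all.

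RefSeq promoter windows of 300 bases (GRCm38.p6) were matched by symbol for 7 of the 9 members. These genes had 12 windows, and a gene counted if any held the word. An NF-Y site was found for 6 of the 7 genes (Srebf1, Srebf2, Insig1, Insig2, Hmgcs1 and Cyp51) and, counted in the same way, for 41.1% of all 27025 symbols of the table. By window the values were 7 of 12 for the members and 37.4% of all 32851. An SP site was found for all 7, against 38.2% of symbols, and by window in 10 of 12, against 35.7%. The SRE was found for Hmgcs1 only, against 1.44% of symbols, and a GATA site for Insig2 only, against 33%. Srebf1 and Srebf2 had an NF-Y word at their promoter and no GATA4 summit of the optimal list there.

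The other genes of the pathway were taken as 3 lists by role, 40 genes in all. They were chosen with earlier results of these data known, so their shares are descriptions and cannot be read as those of a blind choice. Of the 40 genes, 33 (82.5%) had a summit in the optimal list, beside 47.6% of all genes. Their median length was 22.7 kb. Replicate 1's list gave 5 of the 40 a summit (12.5%, beside 11.4% of all genes) and replicate 2's 27 (67.5%, beside 51.8%). The earlier and later conservative lists gave 12 (30%, beside 21.9%) and 13 (32.5%, beside 23.2%).

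In sterol synthesis 11 of 17 genes (64.7%) had a summit in the optimal list, beside 47.6% of all genes. Replicate 2's list gave 58.8% of the 17 a summit, beside 51.8% of all genes, and replicate 1's 11.8%, beside 11.4%. The strongest peak was near Tm7sf2, a sterol reductase gene, at rank 1016, but it lay 9 bp from the start site of its neighbour Znhit2. An intronic peak of Dhcr7, a sterol reductase gene, stood at rank 2899, and Acat2, acetoacetyl-CoA thiolase, at rank 4605 in a peak downstream of the gene and nearest the start site of Acat3. Hsd17b7, a sterol ketoreductase, was at rank 5986, 50 bp from its start site.

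Of 11 genes for SREBP processing and for the turnover of sterol enzymes, 10 (90.9%) had a summit, and Ufd1 had none. That was in the optimal list, beside 47.6% of all genes. Replicate 2's list gave 54.5% of the 11 a summit, beside 51.8% of all genes, and replicate 1's 9.09%, beside 11.4%. In the optimal list the 11 genes were led by Rnf145, a ubiquitin ligase gene, with an intronic peak at rank 1958. Ube2g2 had a peak at rank 5151, 118 bp from the start site of Sumo3. Rnf139 was at rank 5995 and Stard4, a sterol carrier, at rank 7242. All 12 lipogenesis genes had a summit in the optimal list. Replicate 2's list gave 91.7% of them one and replicate 1's 16.7%, beside the same shares of all genes. The lipogenesis genes were longer, with a median of 55.8 kb, and more sequence is searched around a longer gene. Gpam, the acyltransferase that begins triglyceride synthesis, led at rank 1187 with a peak 68 bp from its start site that was in both replicates' lists. Pnpla3 (rank 2715), Fads2 (rank 4421), Scd1 (rank 5132) and Acly (rank 6428) followed. The Scd1 peak lay 8146 bp downstream of the gene. The Acly peak was intronic but nearer the start site of Klhl11 (18068 bp) than that of Acly (32789 bp).

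The 72 summits at these 40 genes had a GATA site at 37 (51.4%, against 52.8% of all summits), a share near that of the list. By class the shares differed from the list in opposite directions. Among promoter summits 4 of 28 had one (14.3%, against 25.7%), and among the others 33 of 44 (75%, against 60.3%). An NF-Y site was at 17 (23.6%, against 12.8%) and an SRE at none, against 0.291%. Promoter summits made up 28 of the 72 (38.9%, against 21.6%), a share that the 10 kb rule favours, since all summits were not held to it.

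**Figure D5:**
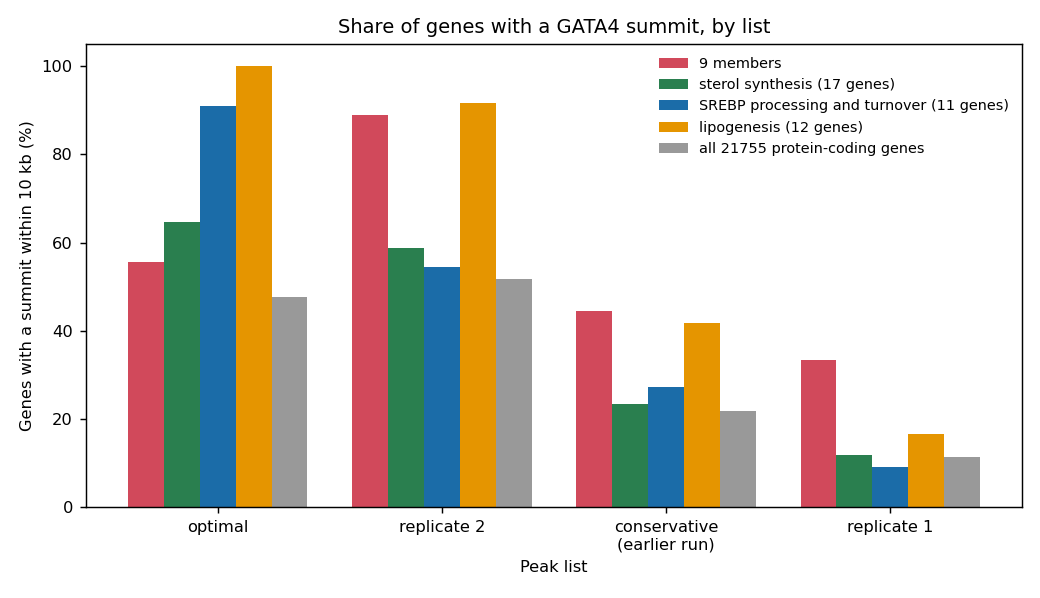
Share of genes that had a summit by the 10 kb rule, in percent, by peak list, for the 9 members, 3 lists of other pathway genes and all 21755 protein-coding genes. The grey bars for all genes stand at 47.6%, 51.8%, 21.9% and 11.4% from left to right, and each list's bars are read against the grey bar beside them.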

How the data were processed

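GATA4 ChIP-seq peak lists of 2 samples were used as deposited, on mm10. Per the README tables deposited with the samples, an earlier run gave the relaxed, optimal and conservative lists, and a later run gave each replicate's list, a pooled list and a second conservative list. The replicates' own lists are therefore from another run than the optimal list. The authors' signal score has no unit and was used only to rank peaks within a list, and the deposited IDR score was read from the values as a multiple of the negative log2 of the IDR, up to 1000. Thresholded lists start at an IDR score of 537 or 540, an IDR of about 0.05. For the aligner, peak caller and depth nothing is given in the sources used here. No control sample was used here.

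Only chromosomes 1 to 19, X and Y were analysed, which removed 33 optimal peaks. Summits were set against GENCODE M21 basic genes and the GRCm38.p6 sequence, with coordinates counted from 1. A summit within 1 kb of a protein-coding start site was called promoter, otherwise exon, intron or intergenic. Peaks counted as shared when they had 1 base in common. Motifs were searched on both strands in the 101 bases around the summit: the words spelled out in the results, with CAAAGTCCA or CAAAGTTCA for HNF4, TTGCGCAA or TTGCACAA or TTGCATAA for CEBP and TGTTTAC or TATTTAC or TGTTTGC for FOX. A match is a description, not a bound site. Intervals are 95% Wilson intervals and cover counting error only. All 9 members are named, and of each other pathway list the 5 genes with the strongest peak, and those without a summit where 5 or fewer, except that some are not reported here. The members and lists were chosen with earlier results of these data known. Code was tested on simulated data. Tools were Python 3.11.15, pandas 2.3.3, NumPy 2.4.6, SciPy 1.17.1, pysam 0.24.0 and matplotlib 3.10.9.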

Additional observations from a re-analysis of the deposited data

How the results depend on the processing

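The counts depend most on the peak list. When the optimal list was exchanged for that of 1 replicate, members with a summit ranged from 3 to 8 (main value 5), their summits from 3 to 15 (12), those at promoters from 1 to 8 (6), the share with a GATA site from 33.3 to 40% (41.7%) and other pathway genes with a summit from 5 to 27 (33). The earlier and the later conservative list each left 4 member summits, and 12 and 13 other pathway genes. At an IDR of 0.01 or stricter, 6 member summits were left. Counting summits in the gene alone gave 5, within 50 kb 22, and by the nearest protein-coding start site 22. The share with a GATA site was 16.7% within 25 bp and 75.0% over whole peaks, against 34.4% and 70% of all summits. The promoter count in the later pooled list (4) and the 4-letter GATA search (58.3%) were added after seeing the data. The remaining alternatives stayed within 1.5 times the main count or within its interval. No paired analysis was possible because there was 1 group. Depth is unknown, so what it limits could not be measured.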
